A study of Mus musculus with 8 samples.

Results

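Kinesin and centrosomal Cep genes were followed in mouse leukaemia cells sorted by surface c-kit. The 77 genes were chosen by name, as those whose array probe sets carry a single gene symbol starting with Kif, Kifc or Cep and a digit, without antisense entries ending in "os". They made up 77 of the 18193 genes named on the array. By function, 14 were mitotic kinesins, 15 were transport kinesins, 12 were other kinesins and 36 were Cep genes.

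The leukaemias were MLL-AF10 acute myeloid leukaemias of 4 mice, and leukaemic spleen cells of each mouse were flow-sorted into a c-kit-high fraction (CD117pos) and a c-kit-negative or c-kit-low fraction (CD117neg), with 1 array per fraction and mouse, 8 in all. The strain is given in the labels as CD57BL/6: syngeneic recipients had sub-lethal irradiation and then c-kit+ bone marrow stem and progenitor cells that a retrovirus had immortalised. Both fractions therefore share the fusion gene and the host treatment and differ by the sort. The sources used here give neither the promoter that drove the fusion gene, nor the ages of the mice, nor whether separate transductions started the leukaemias. Sub-lethally irradiated hosts keep blood cells of their own, and the labels name no marker that separated these from leukaemic cells. The mice are called by the endings of the array titles, _948, _951, _952 and _953.

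Kinesins are motor proteins that use ATP to move along microtubules or to take their ends apart. Mitotic kinesins build the spindle, move chromosomes and close the cell after division, while transport kinesins carry vesicles, organelles and ciliary cargo. Cep proteins sit at the centrosome, the pair of centrioles and surrounding material that organises microtubules, and they duplicate the centrioles, tie centrosomes together, form appendages and build the primary cilium from the mother centriole. Dividing cells such as blood progenitors make spindle motors and centriole duplication factors mainly in the later cell cycle, and mature myeloid cells have left the cycle.

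Promoters of the genes the results turn on are shown because genes of the late cell cycle are known for a few short promoter motifs, and differences of all mitotic kinesins had the same sign here. The motifs searched on both strands were the CCAAT box (CCAAT), the cell cycle homology region or CHR (TTTGAA or TTCGAA) and an E2F motif (TTTGGCGC, TTTCGCGC or TTCCCGCC). The sequences are the 250 bases before the annotated transcript start, from RefSeq on GRCm38.p6, written 5′ to 3′ along the gene, with motif matches in capitals. They were the 5 mitotic kinesins that rose (Kif2c, Kif4, Kif20b, Kif18a and Kif11), the transport kinesin that fell most (Kif1c) and the Cep gene that rose most (Cep97). They lie at chr4:117178773-117179022 (Kif2c, minus strand), chrX:100625815-100626064 (Kif4, plus strand), chr19:34922108-34922357 (Kif20b, plus strand), chr2:109280488-109280737 (Kif18a, plus strand), chr19:37376132-37376381 (Kif11, plus strand), chr11:70700298-70700547 (Kif1c, plus strand) and chr16:55934849-55935098 (Cep97, minus strand). A match describes the letters and does not show that a factor binds.
Kif2c: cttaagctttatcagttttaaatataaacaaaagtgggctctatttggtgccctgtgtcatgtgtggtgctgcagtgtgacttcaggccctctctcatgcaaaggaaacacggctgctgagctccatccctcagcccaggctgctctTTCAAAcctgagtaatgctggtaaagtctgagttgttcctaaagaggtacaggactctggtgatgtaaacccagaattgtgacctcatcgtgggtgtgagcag
Kif4: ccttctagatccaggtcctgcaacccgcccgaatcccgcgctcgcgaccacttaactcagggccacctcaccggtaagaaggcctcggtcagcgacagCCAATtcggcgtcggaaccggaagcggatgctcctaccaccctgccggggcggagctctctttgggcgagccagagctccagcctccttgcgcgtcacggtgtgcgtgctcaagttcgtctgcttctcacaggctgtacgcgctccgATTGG
Kif20b: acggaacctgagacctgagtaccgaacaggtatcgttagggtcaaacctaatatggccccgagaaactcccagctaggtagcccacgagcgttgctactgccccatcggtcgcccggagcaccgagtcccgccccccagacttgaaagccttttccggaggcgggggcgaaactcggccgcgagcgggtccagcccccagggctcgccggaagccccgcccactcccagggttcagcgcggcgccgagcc
Kif18a: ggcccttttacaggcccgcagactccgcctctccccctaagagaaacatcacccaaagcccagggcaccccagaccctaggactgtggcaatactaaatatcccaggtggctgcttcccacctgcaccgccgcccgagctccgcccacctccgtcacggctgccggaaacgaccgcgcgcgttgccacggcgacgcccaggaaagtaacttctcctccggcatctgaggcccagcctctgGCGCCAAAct
Kif11: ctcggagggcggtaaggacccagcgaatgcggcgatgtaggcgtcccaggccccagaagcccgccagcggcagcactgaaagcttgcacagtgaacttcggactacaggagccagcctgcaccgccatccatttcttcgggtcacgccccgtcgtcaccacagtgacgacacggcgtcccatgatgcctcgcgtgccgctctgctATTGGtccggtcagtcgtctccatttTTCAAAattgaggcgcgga
Kif1c: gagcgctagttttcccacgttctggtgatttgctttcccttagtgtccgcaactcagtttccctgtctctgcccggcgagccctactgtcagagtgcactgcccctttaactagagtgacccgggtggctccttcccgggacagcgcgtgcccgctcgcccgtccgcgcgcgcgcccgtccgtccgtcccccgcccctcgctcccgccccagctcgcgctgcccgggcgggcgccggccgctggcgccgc
Cep97: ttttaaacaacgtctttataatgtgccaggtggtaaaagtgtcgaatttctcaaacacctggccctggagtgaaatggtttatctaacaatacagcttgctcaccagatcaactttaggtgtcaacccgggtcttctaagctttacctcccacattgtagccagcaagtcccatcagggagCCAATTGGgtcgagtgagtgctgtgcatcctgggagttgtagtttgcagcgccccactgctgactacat

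Kif2c and Kif11 held a CHR match, Kif11 and Kif4 held CCAAT matches, Kif18a held an E2F match, and Kif20b and Kif1c held none of these letters in this window. Both CCAAT matches of Cep97 overlap, on opposite strands. Among the mitotic kinesins, 13 of 14 genes had a promoter in the table, with CCAAT in 9 (69.2%), CHR in 5 (38.5%) and E2F in 2 (15.4%). Kifc1 and its near-identical copy Kifc5b have similar windows and each count among the 9. Over all 32851 promoters of that length the shares were 33.8%, 17.1% and 2.48%. The 12 promoters of the transport kinesins held CCAAT in 4 (33.3%), CHR in 1 (8.33%) and E2F in 0. The 38 promoters of Cep genes held them in 16 (42.1%), 7 (18.4%) and 5 (13.2%). CHR and E2F shares were alike in members that rose and members that did not pass. The 19 promoters of members that rose held CCAAT, CHR and E2F in 52.6%, 21.1% and 10.5%. For the 52 promoters of members that did not pass the shares were 40.4%, 21.2% and 11.5%. The 4 promoters of members that fell held them in 2, 1 and 0. In all, 64 of the 77 genes matched the table, and those not listed there were Cep120, Cep192, Cep295nl, Cep350, Cep76, Kif13b, Kif20a, Kif21b, Kif28, Kif5a, Kif5b, Kifc2 and Kifc3.

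Kit, the gene of the sorted marker, followed the sort. Its intensity was 28.6 ± 9.73 (SD, n = 4) in CD117neg and 751 ± 127 in CD117pos arrays, and the groups did not overlap. Intensities were analysed as log2(intensity + 16), and all differences are CD117pos minus CD117neg on that scale. A gene is said to rise or fall where limma's moderated test, blocked on the mouse, gave a Benjamini-Hochberg adjusted p under 0.05 over all 18193 genes. By this rule 1504 genes rose (8.27%) and 2511 fell (13.8%), so that 37.5% of the changed genes were higher in CD117pos; that share was 55.4% after quantile normalisation and 48.2% after centring on array medians. Late neutrophil markers (5 of 6 measured fell) and monocyte and macrophage markers (6 of 7 fell) were lower in CD117pos, with summed intensities of 33562 to 38332 against 8150.5 to 16678 and of 28502 to 34982 against 6106 to 11199. Of 6 general myeloid markers 1 rose and 3 fell, and their sums of 17182 to 18931 and 16644 to 21506 overlapped. B, T, NK, erythroid and megakaryocyte marker lists held 5, 6, 4, 5 and 6 measured genes, and 0 of them passed the adjusted limma test, while 1, a megakaryocyte marker, had an unadjusted p under 0.05. Of 5 mast cell and basophil markers 1 rose and 1 fell, and of 6 stromal and endothelial markers 1 fell. In sorted bulk cells, fewer cells of a type and less RNA per cell cannot be told apart, and the part of these maturation markers in the differences below was not tested.

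The CD117pos array of mouse _951 stood apart from the rest. Its mean correlation with the other CD117pos arrays was 0.9285, where the others had 0.9675 to 0.9686 and the CD117neg arrays 0.9835 to 0.9878. It also held the highest sum of T cell markers, 559 against at most 134 in the other CD117pos arrays, nearly all of it from Cd8a at 537, while Cd3d, Cd3e, Cd3g, Cd4 and Cd8b1 lay below the array median on every array. Results that rest on mouse _951 are given with and without it.

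Of the 77 kinesin and Cep genes, 17 rose (22.1%, against 8.27% of all genes) and 6 fell (7.79%, against 13.8%). The other 54 did not pass. Their median difference was 0.14, where that of all genes was -0.01. The groups of arrays did not overlap for 17 genes that were higher in CD117pos and 8 that were lower, where 10.4% and 17.3% of all genes had such separation. By class, the median was 0.85 for mitotic kinesins, 0.18 for Cep genes, -0.03 for other kinesins and -0.24 for transport kinesins.

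**Figure D1:**
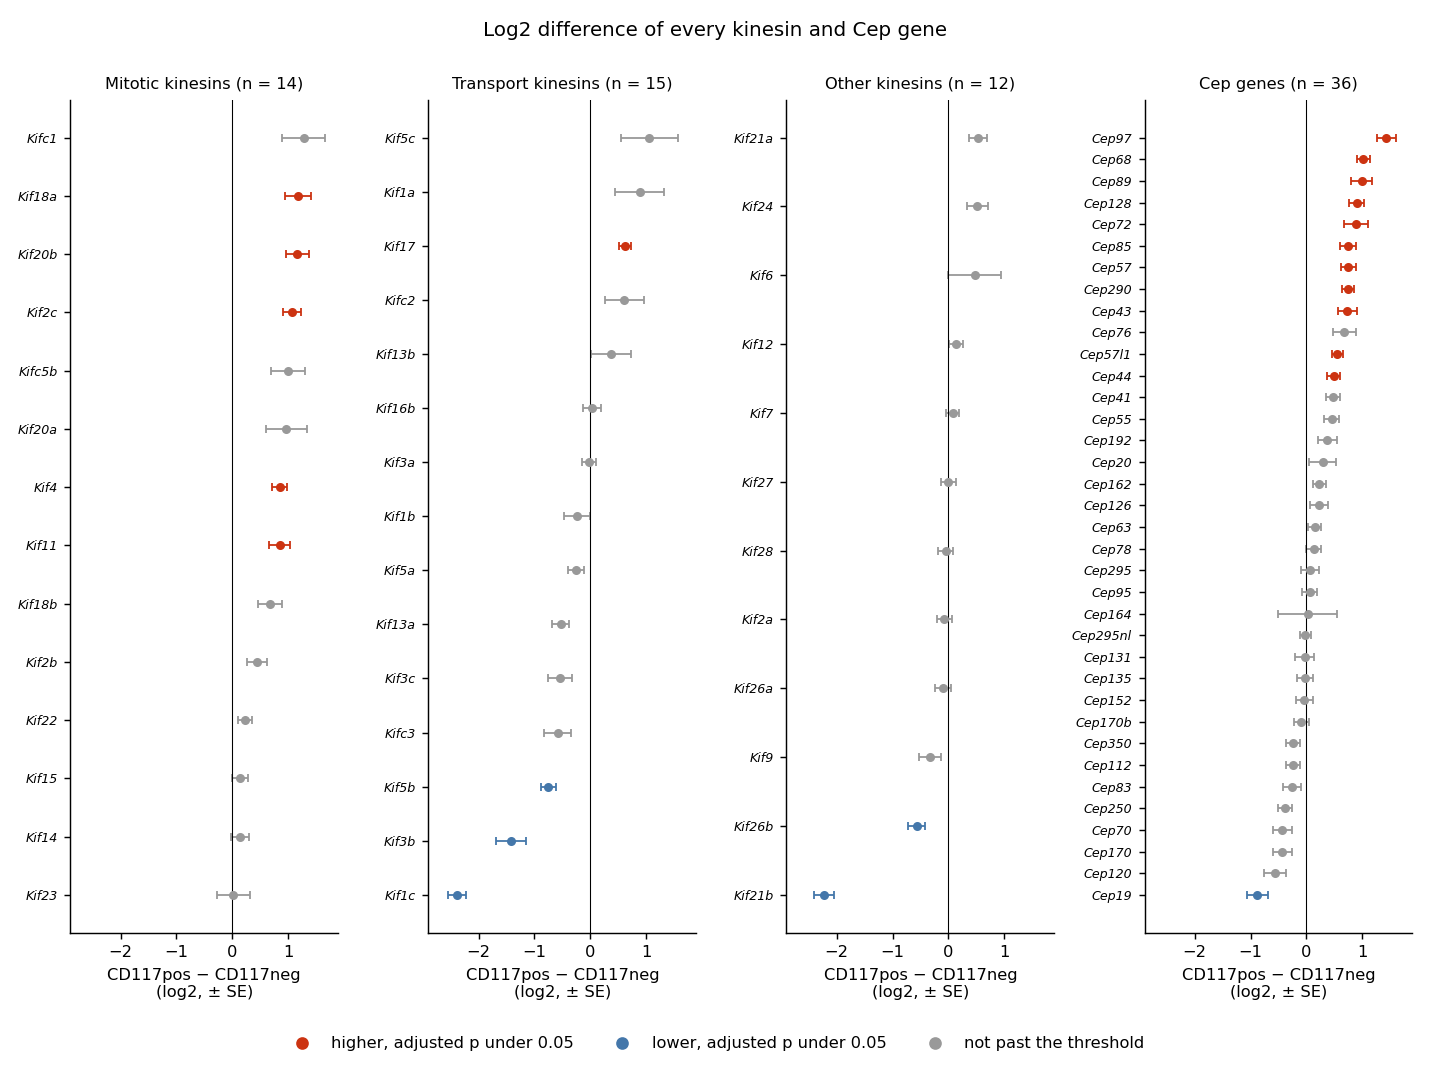
Log2 difference (CD117pos minus CD117neg, ± SE, x axis) of each of the 77 genes, in 4 panels by class, with genes past adjusted p 0.05 coloured. All 14 mitotic kinesins lie right of 0, from 0.02 to 1.28, while transport kinesins spread from -2.38 to 1.06.

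Mitotic kinesins were the class with the highest median. Of 14, 5 rose (Kif2c, Kif4, Kif20b, Kif18a and Kif11) and 0 fell, and all 14 differences lay above 0. The 5 that rose made up 35.7% of the class, and at limma's unadjusted p under 0.05 the count was 10 higher and 0 lower, where 14.2% of all genes were higher and 20.4% lower. Of the 9 that did not pass, 3 (Kif2b, Kif14 and Kif15) lay below the array median on every array, so these arrays say little about them.

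Kif2c (NCBI Gene 73804) takes microtubule ends apart at centromeres and corrects faulty chromosome attachments. Its intensity was 305, 467, 606 and 561 in the CD117neg arrays of mice _948, _951, _952 and _953, and 905, 816, 1169 and 1177 in their CD117pos arrays. The lowest CD117pos array was above the highest CD117neg array. The difference was 1.07 ± 0.16 (SE), a 2.1-fold rise (limma adjusted p = 0.0078), and it was smallest, 0.78, in mouse _951.

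Kif4 (NCBI Gene 16571) binds chromosome arms and sets the length of the central spindle. It measured 161, 271, 299 and 253 in CD117neg and 388, 415, 496 and 500.5 in CD117pos arrays, in the same order of mice. No CD117pos array overlapped the CD117neg arrays. Kif4 rose by 0.85 ± 0.14 (limma adjusted p = 0.0116).

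Kif20b (NCBI Gene 240641) acts in cytokinesis, the final separation of daughter cells. Its values were 79.8, 268, 312 and 232 in CD117neg and 336, 525, 680.2 and 410.3 in CD117pos arrays. The array of mouse _948 was the lowest in each fraction, and the fractions still did not overlap. The rise was 1.17 ± 0.21 (limma adjusted p = 0.0136).

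Kif18a (NCBI Gene 228421) shortens the swings of chromosomes around the spindle equator. In CD117neg arrays it measured 82.4, 87.8, 194 and 139, and in CD117pos arrays 327, 121, 429 and 408. The fractions overlapped, because the CD117pos array of mouse _951 lay below CD117neg arrays of mice _952 and _953. Kif18a nevertheless rose within every mouse, by 1.18 ± 0.24 on average (limma adjusted p = 0.0212).

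Kif11 (NCBI Gene 16551) pushes the spindle poles apart, and without it cells stop with a spindle of a single pole. CD117neg arrays gave 492, 767, 875 and 472 and CD117pos arrays 1134, 914, 1522 and 1107. The fractions did not overlap, but the lowest CD117pos array, that of mouse _951, lay only just above the highest CD117neg array. The rise was 0.85 ± 0.19 (limma adjusted p = 0.0291), and all 3 of its probe sets rose when each was tested singly.

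**Figure D2:**
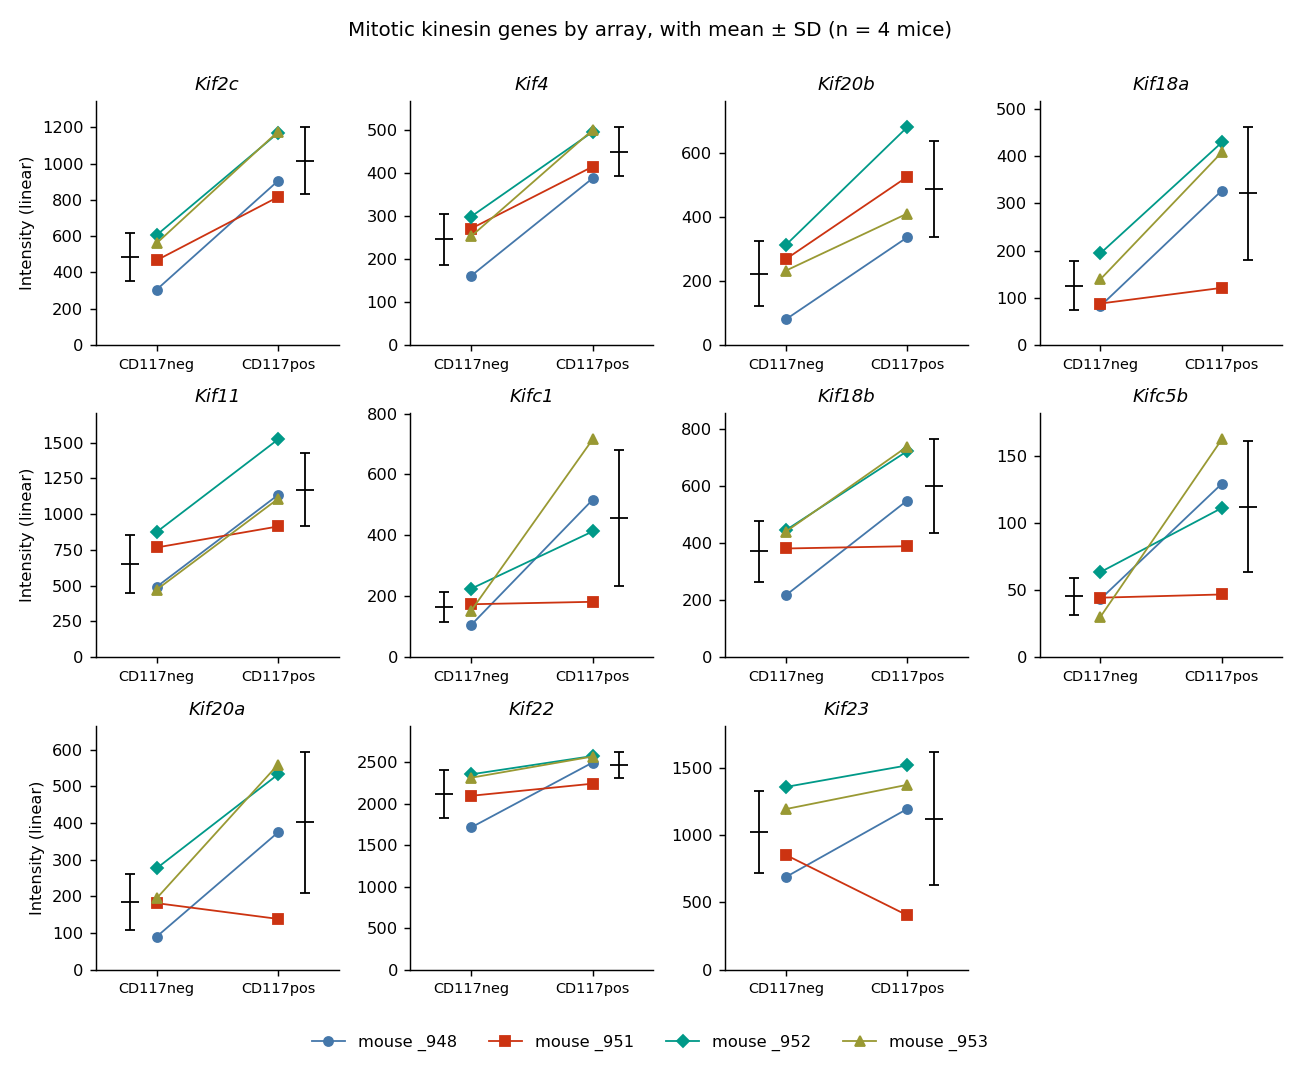
Linear intensity (y axis) of 11 mitotic kinesins in the CD117neg and CD117pos array of each mouse, joined by lines, with mean ± SD of 4 mice beside them. For Kif2c the CD117pos arrays lie between 816 and 1177 and the CD117neg arrays between 305 and 606; for Kifc1, Kif18b and Kifc5b the line of mouse _951 is nearly flat.

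Kifc1, a motor that walks toward microtubule minus ends and gathers spindle poles, had the largest difference of the class without passing the test. It measured 106, 174, 225 and 153 in CD117neg and 517, 182, 413 and 715 in CD117pos arrays. The CD117pos array of mouse _951 fell among the CD117neg arrays, and the difference was 1.28 ± 0.38 (limma adjusted p = 0.0658). Kifc5b is a near-identical copy of Kifc1 whose probe sets may share signal with it. It was 1.99-fold higher in CD117pos with a limma adjusted p of 0.0771, and this value is uncertain for that reason. Kifc1 and Kifc5b are counted as separate genes in all counts of the class, so a shared signal would be counted more than once.

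Kif18b, which shortens astral microtubules, differed by 0.68 (limma adjusted p = 0.0755), with 0.03 in mouse _951 and 0.68 to 1.28 in the other mice. Kif20a carries the chromosomal passenger complex to the central spindle. It differed by 0.97 (limma adjusted p = 0.124), with -0.35 in mouse _951 and 0.91 to 1.89 in the others. Kif23, part of the centralspindlin complex of the dividing cell's midzone, differed by 0.02 (limma adjusted p = 0.967), as -1.05 in mouse _951 stood against 0.16 to 0.78 in the others. In each of these genes mouse _951 was the lowest of the 4.

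Kif22, a motor on chromosome arms, depended on the probe set. The brightest of its 3 probe sets gave 0.23 ± 0.13 (limma adjusted p = 0.277). The other probe sets gave 1.42 ± 0.32, which rose when tested singly over all 45037 probe sets, and 0.89 ± 0.31, which did not pass. These 2 differed most in mouse _951. The one that rose gave 2.61 there and 0.67 to 1.35 in the other mice. The one that did not pass gave -0.23 there and 0.95 to 1.69 in the others. Kif2b (0.45), Kif14 (0.14) and Kif15 (0.14) did not pass either.

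The median difference of the mitotic kinesins was 1.23 in mouse _948, 0.69 in _952, 0.99 in _953 and 0.17 in _951. In 11 of the 14 genes (78.6%) mouse _951 had the smallest difference, as it had in 38.3% of all genes. Without mouse _951, 9 mitotic kinesins rose (the same 5 with Kif18b, Kif20a, Kifc1 and Kifc5b, against 11.6% of all genes), and without mouse _948, _952 or _953 the count was 2, 1 and 2 (against 2.31%, 3.21% and 2.29% of all genes), with Kif2c in each and Kif20b without _948 or _953. Where probe sets that may match several genes or transcripts were left out, 4 rose, against 7.76% of all genes. They were Kif11, Kif18a and Kif4, with Kif22 by its probe set that was highest in mouse _951. The brightest remaining probe sets of Kif2c and Kif20b gave 1.06 and 0.88 and did not pass. For Kif2c that probe set gave -0.41 in mouse _951. A dimmer remaining probe set of Kif2c rose by 0.78 ± 0.12 when tested singly (limma adjusted p = 0.01).

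Partners of the mitotic kinesins were read from a list of spindle genes. Of 36 listed, 34 were measured, 17 rose (50%, against 8.27% of all genes) and 0 fell (against 13.8%), with a median difference of 0.82. Tacc3, which stabilises spindle fibres, rose by 1.27 ± 0.22 (limma adjusted p = 0.0121). Aurkb, the kinase of the chromosomal passenger complex, rose by 1.23 ± 0.16 (0.00601 in the same test), and Bora, an activator of mitotic kinases, rose by 1.19 ± 0.14 (0.00484). At limma's unadjusted p under 0.05 the count was 25 higher and 0 lower, against 14.2% and 20.4% of all genes. The call of Tacc3 was lost without mouse _948 or _953 and where probe sets that may match several transcripts were left out. The list's median was 0.28 in mouse _951 and 0.69 to 1.32 in the others, so mouse _951 was lowest for the list as for the motors.

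Markers of proliferation in general had a lower median, 0.37. Of 14 measured, 3 rose (21.4%, against 8.27% of all genes) and 0 fell (against 13.8%), with 5 higher and 0 lower at limma's unadjusted p (against 14.2% and 20.4% of all genes). Tk1, the thymidine kinase of DNA synthesis, rose by 1.21 ± 0.18, Cdk1, the kinase that starts mitosis, by 0.89 ± 0.14, and Cdc20, an activator of the anaphase-promoting complex, by 0.70 ± 0.13 (limma adjusted p = 0.0089, 0.00916 and 0.0169). Without mouse _953 none of these 3 passed, without _948 only Tk1 did, and without _952 Cdc20 did not. Mki67, which marks cycling cells, was high in both fractions, 3336 ± 638 in CD117neg and 4187 ± 669 in CD117pos arrays, and its difference of 0.33 ± 0.14 did not pass (limma adjusted p = 0.151). By mouse the marker median was 0.76 in _948, -0.00 in _951, 0.34 in _952 and 0.48 in _953, so proliferation markers and mitotic kinesins shared their lowest mouse. The part of proliferation in the kinesin differences was not tested.

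Transport kinesins had the lowest median of the classes. Of 15, 3 fell (Kif1c, Kif3b and Kif5b), 1 rose (Kif17) and 11 did not pass, with differences of -0.58 to 1.06 among these. The share that fell is to be read against 13.8% of all genes and the share that rose, 6.67%, against 8.27%.

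Kif1c (NCBI Gene 16562), which carries vesicles and integrins in migrating cells and macrophages, fell most of all 77 genes. Its values were 275, 239, 403 and 409 in CD117neg and 34.7, 52.5, 65.5 and 48.4 in CD117pos arrays. Every CD117pos array lay far below every CD117neg array. The difference of -2.38 ± 0.16 is 5.19-fold higher in CD117neg (limma adjusted p = 0.00118). Only this probe set of its 4 passed; the other 3 had mean intensities of 5.31 to 45.7 and differences of -0.31 to 0.67. It passed in all 14 alternatives, with -0.49 for the mean of its probe sets and -2.69 to -1.77 in the others.

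Kif3b (NCBI Gene 16569) pairs with Kif3a in the motor that carries cargo along cilia and in the cell body. It measured 146, 222, 199 and 182 in CD117neg and 47.9, 30.3, 73.1 and 104 in CD117pos arrays. The fractions did not overlap, and mouse _951 showed the largest drop, -2.36. Kif3b fell by 1.42 ± 0.27 on the log2 scale (limma adjusted p = 0.0169), and 3 of its 4 probe sets fell when tested singly. With the mean of its probe sets the difference was -0.84. For its partner Kif3a the brightest of 4 probe sets gave -0.02 ± 0.13 (limma adjusted p = 0.919), while another rose by 0.70 ± 0.17 when tested singly (limma adjusted p = 0.0408).

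Kif5b (NCBI Gene 16573) is the widely expressed heavy chain of conventional kinesin. CD117neg arrays gave 1651, 1408, 1466 and 1556, and CD117pos arrays gave 981, 634, 1051 and 971. The fractions did not overlap. The difference was -0.75 ± 0.14 (limma adjusted p = 0.0175), and 4 of 6 probe sets fell when tested singly. Of its neuronal relatives, Kif5a was below the array median on every array, and Kif5c lay at 4.75 to 14.5 on 7 arrays and at 177 in the CD117pos array of mouse _951. Only through that array was this the brightest probe set of Kif5c, so the choice favoured the outlying value. Its other probe sets gave 0.98, 0.17 and -0.20 in mouse _951.

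Kif17 (NCBI Gene 16559), a motor of cilia and dendrites, was the transport kinesin that rose. It measured 111, 109, 111 and 117 in CD117neg and 187, 186, 188 and 163 in CD117pos arrays, with no overlap. The rise was 0.62 ± 0.11 (limma adjusted p = 0.0154), with 0.70 in mouse _951. Only this probe set of its 3 passed when each was tested singly. The others gave 0.68 ± 0.27 and 0.58 ± 0.18, with -0.29 and -0.02 in mouse _951.

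**Figure D3:**
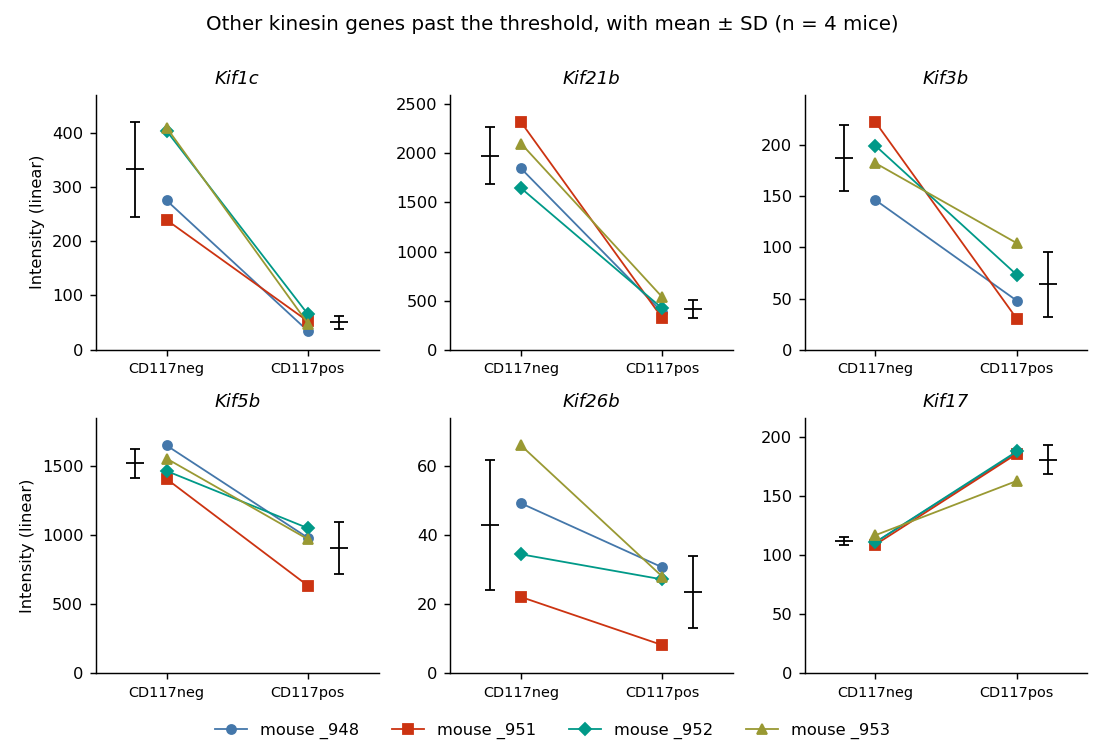
Linear intensity (y axis) of the 6 kinesins outside the mitotic class that passed the test, per mouse and fraction, with mean ± SD of 4 mice. Kif1c falls from between 239 and 409 to between 34.7 and 65.5, and Kif17 rises from between 109 and 117 to between 163 and 188.

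The brightest transport kinesins that did not pass were Kif1b, Kif13a, Kif13b, Kif16b and Kifc3. Kif1b, which moves mitochondria and vesicle precursors, had probe sets that disagreed. The brightest gave -0.24 ± 0.23 (limma adjusted p = 0.523), 1 of the other 6 fell by 1.11 ± 0.18 when tested singly, and another gave 1.10 ± 0.54 with 3.24 in mouse _951. Kif13a, a motor of recycling endosomes, differed by -0.53 ± 0.15 (limma adjusted p = 0.0539) and was lower in CD117pos in all 4 mice. Kif16b, a motor of early endosomes, differed by 0.03 ± 0.16, and Kifc3, a minus-end motor, by -0.58 ± 0.24, neither past the limma test (adjusted p = 0.928 and 0.154).

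Kif13b, which carries membrane scaffolds, showed how far a single array could reach. It measured 462, 519, 402 and 457 in CD117neg and 533, 1813, 314 and 412 in CD117pos arrays. The mean difference of 0.37 ± 0.36 (limma adjusted p = 0.535) came with 1.77 in mouse _951 and -0.34 to 0.20 in the others. Kif1a, a neuronal motor, behaved likewise, with 419 in that array and 23.6 to 59 in the other 7.

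Among transport kinesins mouse _951 was more often the highest than the lowest mouse. In 9 of the 15 transport kinesins (60%) it had the highest difference and in 5 the lowest, where it was the highest in 30.6% of all genes. The class median was 0.13 in mouse _951 and -0.30 to -0.15 in the others. Without mouse _951, 5 transport kinesins fell (Kif3c and Kifc3 joined) against 16.4% of all genes, and without mouse _948 the count was 1 (against 6.63%). Kif17 did not pass without mouse _948, _952 or _953, nor where probe sets that may match several genes or transcripts were left out. The class median was -0.02 after quantile normalisation and -0.01 with the mean of each gene's probe sets.

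**Figure D4:**
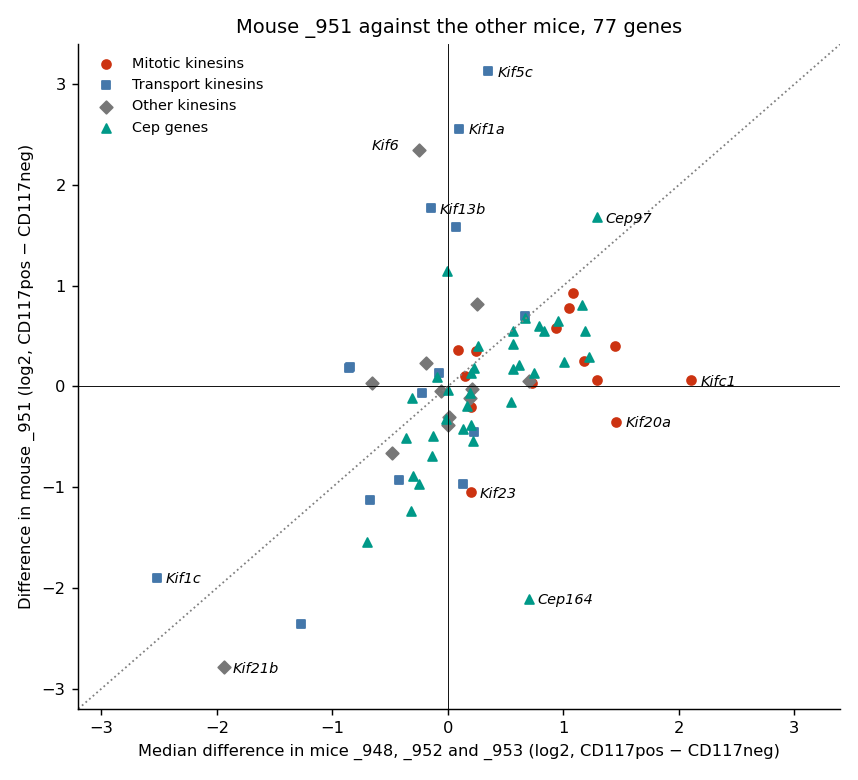
Log2 difference in mouse _951 (y axis) against the median difference in mice _948, _952 and _953 (x axis) for the 77 genes, marked by class, with equality dotted. Kif5c (3.13), Kif1a (2.56) and Kif6 (2.35) lie high in mouse _951, while Cep164 (-2.11) and Kif23 (-1.05) lie low there. The Kif5c probe set shown was its brightest only through the CD117pos array of mouse _951.

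Adaptors that tie kinesins to cargo and the dynein complex, which moves cargo the opposite way, had medians below 0 too. Of 22 adaptors listed, 19 were measured, 1 rose (5.26%, against 8.27% of all genes) and 4 fell (21.1%, against 13.8%), with a median of -0.17. The gene that rose was Kifap3, the adaptor of Kif3 motors, by 0.54 ± 0.13 (limma adjusted p = 0.037). Rab11fip5, an adaptor of recycling endosomes, fell by 1.88 ± 0.24, Fez2 by 1.07 ± 0.14, and Kidins220, a membrane scaffold carried by Kif5 motors, by 0.78 ± 0.20 (limma adjusted p = 0.00548, 0.00549 and 0.0431). The call of Kidins220 was lost in 7 of 14 alternatives, and its difference was -0.37 with the mean of its probe sets. The light chain Klc1, which links Kif5b to cargo, fell by 0.73 ± 0.12 (limma adjusted p = 0.01).

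Of 31 dynein and dynactin genes listed, 26 were measured, 3 rose (11.5%, against 8.27% of all genes) and 7 fell (26.9%, against 13.8%), with a median of -0.19. Ndel1, a dynein regulator, fell by 1.74 ± 0.20 and Hook3, a dynein adaptor, fell from 989 ± 132 to 508 ± 174 (limma adjusted p = 0.00416 and 0.0487). The call of Hook3 was lost in 7 of 14 alternatives, among them quantile normalisation (-0.80) and centring (-0.91), and its difference was -0.60 with the mean of its probe sets and -0.66 without mouse _951. Spdl1, which brings dynein to kinetochores in mitosis, rose by 1.03 ± 0.25 (limma adjusted p = 0.0346), a call lost when any of the mice _948, _952 and _953 was left out and at a pseudocount of 1. Spdl1 measured 174, 255, 334 and 283 in CD117neg and 644, 325, 606 and 657 in CD117pos arrays, and mouse _951 was again the lowest in CD117pos.

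The 12 other kinesins held 0 that rose (against 8.27% of all genes) and 2 that fell (16.7%, against 13.8%), Kif21b and Kif26b, and 6 of them lay below the array median on every array. At limma's unadjusted p under 0.05, 2 were higher and 2 lower, where 14.2% of all genes were higher and 20.4% lower. Without the block on the mouse, 1 rose (Kif21a, against 8.33% of all genes) and 1 fell (Kif21b, against 14%).

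Kif21b (NCBI Gene 16565), which pauses growing microtubule ends in neurons and lymphocytes, had the second largest fall. It measured 1846, 2317, 1645 and 2099.5 in CD117neg and 381, 322, 421 and 535 in CD117pos arrays. The fractions lay far apart. The difference was -2.22 ± 0.18, or 4.66-fold higher in CD117neg (limma adjusted p = 0.00169). It passed in all 14 alternatives, with -1.18 for the mean of its probe sets as the smallest difference. The other probe set, with mean intensities of 6.94 in CD117neg and 4.85 in CD117pos arrays, gave -0.14 ± 0.13. Kif21a, the closest relative of Kif21b, lay below the array median on every array.

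Kif26b, a kinesin without motor activity, measured 49.3, 22.1, 34.5 and 66.1 in CD117neg and 30.7, 8.13, 27.2 and 28 in CD117pos arrays. The fractions overlapped. It fell by 0.57 ± 0.15 (limma adjusted p = 0.0443), and this call was lost in 11 of 13 alternative settings. Kif2a, a microtubule depolymerase of interphase and spindle, differed by -0.07 ± 0.14 (0.14 after quantile normalisation and 0.02 after centring), and Kif24, which holds back cilia with Cep97, by 0.52 ± 0.19, neither past the limma test (adjusted p = 0.762 and 0.12). Kif12 (0.14 ± 0.12) and Kif21a (0.53 ± 0.16) did not pass. Kif6, of cilia, lay at 49 to 79.3 on 7 arrays and at 469 in the CD117pos array of mouse _951.

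Cep genes held the most members that rose. Of 36, 11 rose (30.6%, against 8.27% of all genes), 1 fell (against 13.8%) and 24 did not pass. The median was 0.18, with 0.25 in mouse _948, 0.11 in _951, 0.26 in _952 and 0.32 in _953.

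Among 14 genes of centriole duplication and the material around the centriole, 5 rose (35.7%, against 8.27% of all genes) and 0 fell (against 13.8%). Those that rose were Cep97, Cep57, Cep85, Cep57l1 and Cep44. At limma's unadjusted p under 0.05, 6 of the 14 were higher and 2 lower, where 14.2% of all genes were higher and 20.4% lower. Cep97 (NCBI Gene 74201) caps the growing end of centrioles and keeps cilia from forming. It measured 100.4, 194, 146 and 100.4 in CD117neg and 268, 654, 305 and 381 in CD117pos arrays, so that mouse _951 was highest in each fraction. The fractions did not overlap, and Cep97 had the largest rise of all 77 genes, 1.43 ± 0.17 (limma adjusted p = 0.00439). It passed in all 14 alternatives, with differences from 1.0 (mean of all its probe sets) to 1.59. Tested singly, a further probe set rose by 1.62 ± 0.20, and the other 2, at 0.41 and 0.55, did not pass.

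Cep57, which keeps a new centriole engaged with its parent, measured 194, 259, 337 and 273 in CD117neg and 414, 388, 513 and 496 in CD117pos arrays. It rose by 0.75 ± 0.13 without overlap (limma adjusted p = 0.0137). Its relative Cep57l1 rose by 0.55 ± 0.10, between 0.51 and 0.58 in every mouse (limma adjusted p = 0.0168). Cep85, which helps start centriole duplication, rose by 0.75 ± 0.14, and Cep44, a protein inside the centriole, by 0.49 ± 0.12 (limma adjusted p = 0.0157 and 0.0349). With the mean of each gene's probe sets none of these 3 passed, at 0.28 for Cep57l1, 0.25 for Cep85 and 0.07 for Cep44. Each had a probe set with a difference below 0, for Cep85 at mean intensities of 128 in CD117neg and 104 in CD117pos arrays. Those of Cep57l1 and Cep44 had mean intensities of 5.56 to 12.9, below the median of every array. Other duplication factors did not pass: Cep63 differed by 0.15 ± 0.12, its partner Cep152 by -0.04 ± 0.15 and Cep192 by 0.37 ± 0.17.

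Of 3 genes of the linker between centrosomes and of anchoring, 1 rose (against 8.27% of all genes) and 0 fell (against 13.8%). The gene that rose was Cep68 (NCBI Gene 216543). It measured 95.6, 79.5, 115 and 119.8 in CD117neg and 199.8, 151, 277 and 289.8 in CD117pos arrays, with no overlap. The rise was 1.02 ± 0.12 (limma adjusted p = 0.00454). It passed in all 14 alternatives, with 0.58 for the mean of its 5 probe sets as the lowest value, and 3 of these probe sets did not pass when tested singly. Cep250, the main linker protein, lay below the array median on every array, and Cep350, which anchors microtubules at the centrosome, differed by -0.24 ± 0.12 (limma adjusted p = 0.232), while another of its 3 probe sets fell by 0.90 ± 0.18 when tested singly (limma adjusted p = 0.0242).

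Of 6 appendage genes 2 rose (33.3%, against 8.27% of all genes) and 0 fell (against 13.8%). Cep128 (NCBI Gene 75216), of the subdistal appendages that anchor microtubules, measured 616, 753, 704 and 667 in CD117neg and 1144, 1191, 1376 and 1482 in CD117pos arrays. It rose by 0.90 ± 0.13 without overlap (limma adjusted p = 0.0071). Cep89, of the distal appendages that dock the mother centriole to the membrane, rose by 0.99 ± 0.19 (limma adjusted p = 0.017), and did not pass with the mean of its probe sets (0.66).

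Cep164, also of the distal appendages, turned on mouse _951. It measured 449, 397, 603 and 607 in CD117neg and 705, 79.7, 991 and 1100.2 in CD117pos arrays. In mice _948, _952 and _953 its difference was 0.63 to 0.84, and in mouse _951 it was -2.11, so the mean was 0.02 ± 0.53 (limma adjusted p = 0.988). Without mouse _951 it rose, by 0.73 (limma adjusted p = 0.0086), and with only that CD117pos array left out, and no block, by 0.84 (limma adjusted p = 0.0156). A dimmer probe set of Cep164 gave -1.55 in mouse _951 as well.

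Of 7 cilium and satellite genes, Cep290 and Cep72 rose (28.6%, against 8.27% of all genes) and Cep19 fell (14.3%, against 13.8%). Cep290, of the gate at the base of the cilium, measured 47.7, 38.1, 72.9 and 52.6 in CD117neg and 94.5, 65.9, 132 and 106 in CD117pos arrays. The fractions overlapped, but it rose within every mouse, by 0.74 ± 0.11 on average (limma adjusted p = 0.00839). Cep72, of the granules around the centrosome, rose by 0.89 ± 0.21 (limma adjusted p = 0.0339), with 0.29 in mouse _951 and 0.66 to 1.39 in the others. With a pseudocount of 64 these rises were 0.48 and 0.50, and with a pseudocount of 1 Cep72 did not pass. Cep19 (NCBI Gene 66994), needed to start a cilium, was the Cep gene that fell. It measured 1333, 1539, 947 and 1284 in CD117neg and 814, 518, 555 and 879.7 in CD117pos arrays, with no overlap. The difference was -0.88 ± 0.19 (limma adjusted p = 0.0266).

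Cep55, which recruits the machinery that cuts daughter cells apart, measured 709, 838, 1086 and 880.1 in CD117neg and 1171, 944, 1605 and 1139.9 in CD117pos arrays. It was higher in CD117pos within every mouse, with 0.45 ± 0.13 (limma adjusted p = 0.066), and passed in 7 of 14 alternatives. Among 5 Cep genes of other roles, 1 rose (20%, against 8.27% of all genes) and 0 fell (against 13.8%). It was Cep43, a centriole protein also found fused to a receptor kinase in myeloid disease, which rose by 0.73 ± 0.17 (limma adjusted p = 0.0332). Cep20, its relative, differed by 0.29 ± 0.24 (limma adjusted p = 0.459), with 4186 in the CD117pos array of mouse _951 and 1766 to 2004 on the other 7.

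**Figure D5:**
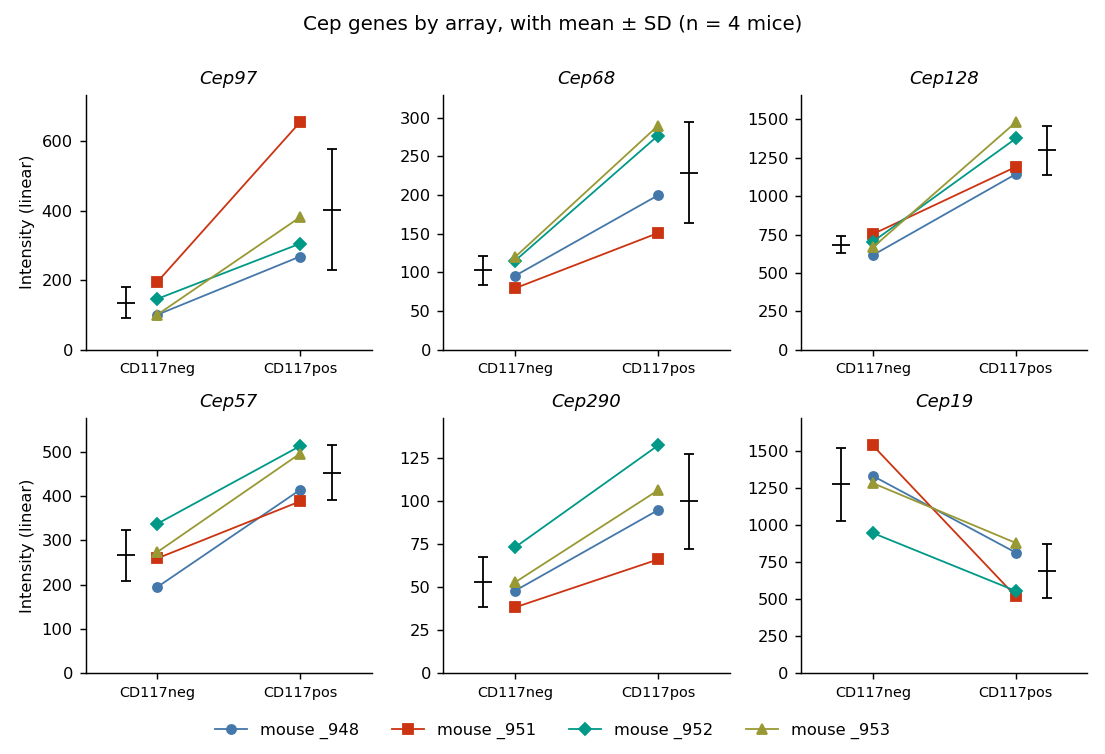
Linear intensity (y axis) of 6 Cep genes past the test, per mouse and fraction, with mean ± SD of 4 mice. Cep97 rises from between 100.4 and 194 to between 268 and 654, and Cep19 falls from between 947 and 1539 to between 518 and 879.7.

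The count of Cep genes depended on the mice. In 24 of 36 (66.7%) mouse _951 had the smallest difference, as it had in 38.3% of all genes. Without mouse _951, 16 rose and 1 fell, against 11.6% and 16.4% of all genes. Without mouse _948, _952 or _953 the number that rose was 3, 4 and 3, with Cep128, Cep68 and Cep97 in each, and 0 fell in each case. Calls were fewer over the whole array too: 2.31%, 3.21% and 2.29% of all genes rose, and 6.63%, 7.6% and 6.49% fell. With the mean of each gene's probe sets 9 rose (against 8.16% of all genes), 7 of them among the 11. Where probe sets that may match several genes or transcripts were left out, 7 of 34 rose, against 7.76% of all genes. Cep128, Cep89 and Cep57l1 did not pass there, and Cep72 was not tested. Cep19 did not pass with a pseudocount of 1 or after quantile normalisation. The median of the Cep genes was 0.31 after quantile normalisation and 0.28 after centring.

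Other genes of centriole duplication and the material around it had a higher median, 0.47. Of 42 listed, 40 were measured, 12 rose (30%, against 8.27% of all genes) and 1 fell (2.5%, against 13.8%). Stil, which starts a new centriole, rose by 1.37 ± 0.14, and Haus1 and Haus3, subunits of the augmin complex that branches spindle microtubules, rose by 1.28 ± 0.13 and 1.06 ± 0.16 (limma adjusted p = 0.00284, 0.00301 and 0.00812); the call of Haus3 was lost without mouse _953. Stil was even across mice, with 1052 to 1168 in CD117pos and 358 to 536 in CD117neg arrays.

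Apart from the sort, levels were compared among mice. Of the 77 genes, 0 differed among mice by limma's moderated F-test on the mouse terms (lowest adjusted p = 0.517), and 11 had an unadjusted p under 0.05. Among all 18193 genes 0 passed, and 1386 (7.62%) had an unadjusted p under 0.05.

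Several members have more than 1 probe set. The 77 genes had 182, and 49 genes had several. Tested singly, 27 probe sets rose and 13 fell, in 28 genes, and 8 genes had more than 1 that passed. The shares over all 45037 probe sets were not taken, so these counts stand without a background. In 0 genes did probe sets pass in opposite directions. In Kif22, Kif3a and Cep41 (higher) and in Kif1b, Cep350 and Cep83 (lower) a dimmer probe set passed while the brightest did not.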

How the data were processed

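RNA of 8 sorted fractions (4 CD117pos, 4 CD117neg) was measured on Affymetrix arrays of 1 colour after amplification in 2 cycles, per the labels' protocols. The authors deposited linear intensity values of 45101 probe sets per array. Neither the summarising of probes nor the scaling between arrays is described in the labels. Array medians were 27.46 to 32.77, and 841 to 898 values per array were exactly 1. Precision is limited by the number of arrays.

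Gene names came from the platform's annotation. Of probe sets other than the 64 controls, 34945 had 1 symbol, 932 several and 9160 none. For each of 18193 genes the probe set of highest mean intensity was kept. Differences of log2(intensity + 16) were tested by lmFit and eBayes of limma 3.58.1 (R 4.3.3, two-sided, mouse as a block), with Benjamini-Hochberg adjustment over all genes. The code was tested on simulated data.

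Blocking on the mouse rests on the design text, since both fractions came from the same animals. Deviations from the fraction means correlated by 0.21, 0.22, 0.27 and 0.12 between fractions of mice _948, _951, _952 and _953, and by at most 0.11 between different mice.

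Gene roles and lists (spindle partners, proliferation markers, centriole genes, kinesin adaptors, dynein and dynactin, and cell type markers) were set by hand. The members and lists were chosen with earlier results of these data known. Roles of Cep20, Cep43, Cep95, Cep112 and Cep295nl were added after the files were seen. Named genes were Kit, every mitotic kinesin, every other member past the threshold, in each other class the 5 brightest members not past it, and up to 3 genes of largest change past the threshold per list. Kif1a, Kif3a, Kif3c, Kif5a, Kif5c, Cep41, Cep83, Cep152, Cep192, Cep250, Klc1, Kifap3, Mki67 and Cd8a were named after their values were seen.

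Alternatives were pseudocounts of 1 and 64, quantile normalisation, centring on array medians, a mean intensity of at least 50 and the mean of all probe sets. Another left out probe sets that may match several genes or transcripts (suffixes _s_at, _x_at and _a_at, called shared below). The rest were no block, an intensity trend, each mouse left out, and the CD117pos array of mouse _951 left out. Testing each probe set singly was added after the data were seen. Python 3.11.15 and matplotlib 3.10.9 served for summaries and figures.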

Additional observations from a re-analysis of the deposited data

Results flagged for a closer look

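Dixon's criterion was applied to 96 groups of 4 arrays, from 48 genes (Kit and the named kinesin and Cep genes) in both fractions. In 7 groups an array lay far from the others by this criterion, which chance alone meets in about 1 in 20 groups. All 7 were CD117pos groups, and in 6 the array was that of mouse _951.

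In that array Kif5b stood at 634 (others 971 to 1051), Kif13a at 442 (832 to 901), Kif16b at 284 (401 to 419) and Kif26b at 8.13 (27.2 to 30.7), all low. Kif6 at 469 (others 49 to 67.7) and Cep20 at 4186 (1766 to 1999) were high there. The remaining case was Kif17, at 163 in the CD117pos array of mouse _953 against 186 to 188 in the others.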

How the results depend on the processing

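Limits are the 4 mice, probe sets near the floor, and classes set by hand. The mitotic count of 5 that rose was 8 when the CD117pos array of mouse _951 was dropped (no block) and 1 to 9 with a mouse left out. Over all genes 11.9% rose and 16.3% fell without that array. With a mouse left out 2.29% to 11.6% of all genes rose and 6.49% to 16.4% fell. Fewer genes passed when any mouse but _951 was left out. Transport kinesins that fell numbered 5 without that array and 1 to 5 with a mouse left out, and those that rose 0 without shared probe sets and 0 to 1 with a mouse left out. Cep genes that rose numbered 7 without shared probe sets and 3 to 16 with a mouse left out. Cep genes that fell numbered 0 with a pseudocount of 1, 0 after quantile normalisation and 0 to 1 with a mouse left out. Over all genes 7.76% rose without shared probe sets, 10.3% fell with a pseudocount of 1 and 10.7% fell after quantile normalisation. Without the replicate block 8.33% of all genes rose and 14% fell. There 4 mitotic kinesins rose (Kif11, Kif2c, Kif4 and Kifc1) and 2 Cep genes fell (Cep19 and Cep250) in place of 1. Of the other kinesins 1 rose (Kif21a) and 1 fell (Kif21b) in place of 0 and 2. The Cep median was 0.31 after quantile normalisation and 0.28 after centring, and the transport median -0.02 after quantile normalisation and -0.01 with the mean of all probe sets. The cause of these shifts was not tested.

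Among genes named, 19 values changed sign, all of genes that did not pass. Cep164 was -0.02 with a pseudocount of 1 and -0.26 to 0.73 with a mouse left out. Kif2a was 0.14 after quantile normalisation and 0.02 after centring. With a mouse left out, the ranges were -0.09 to 0.61 for Kif13b, -0.01 to 0.25 for Kif14, -0.06 to 0.18 for Kif16b, -0.40 to 0.01 for Kif1b, -0.23 to 0.38 for Kif23, -0.18 to 0.03 for Kif2a and -0.16 to 0.74 for Kif6. When that _951 array was dropped (no block), Kif13b was -0.15, Kif1b 0.01 and Kif6 -0.20. Of the other values of the named kinesin and Cep genes, 524 kept direction and side of the threshold, 73 lost the call and 32 gained one. Kit and the genes of the lists are not in these counts.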
